A study of Mus musculus with 12 samples.

Results

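The genes described here are 38 genes of cholesterol and fatty acid synthesis, chosen by name as the enzymes, regulators and closely tied carriers of both pathways. All 38 matched a row of the deposited table of 57180 mouse gene IDs. They were divided into a sterol branch of 20 genes and a fatty acid branch of 18 genes. Both pathways build lipid from acetyl-CoA. The sterol branch passes through mevalonate, isoprenoids and squalene to cholesterol and is driven by the transcription factor encoded by Srebf2, which Insig1 holds in the endoplasmic reticulum when sterols are plentiful. The fatty acid branch makes palmitate, which is then elongated, desaturated and stored as triglyceride; in liver it is driven by the transcription factors encoded by Srebf1, which answers to insulin, and Mlxipl, which answers to carbohydrate. The liver is a main site of both, and in skin sebaceous glands are rich in the same enzymes.

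The study measured 12 libraries in 4 groups of 3. Liver came from mice given CCl4 (carbon tetrachloride, a solvent that hepatocytes convert to a toxic radical) and from mice given vehicle, and was sequenced as bulk RNA; the design text calls the mice C57 and the material hepatocytes, whereas the sample labels say liver, the word used here. CX3CR1+ cells of dorsal skin came from CCl4-treated and vehicle-treated Cx3cr1-creER:Ai9 mice, in which Cx3cr1 drives an inducible Cre recombinase that switches on a fluorescent reporter, and were sequenced by smart-seq, which amplifies whole cDNAs from little RNA. Both treatments were given to the same strain within a tissue, each library is stated to be a biological replicate, and the sources used here do not give dose, duration, sex, age or the way the skin cells were isolated.

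Values are TPM (transcript abundance scaled for length and to a fixed library total), so sequencing depth is unknown. In liver, 37 mitochondrially encoded genes and 10 near copies of them held 68.1% to 82.1% of the TPM in CCl4 libraries, against 25.7% to 28.4% in vehicle libraries. This leaves less of the fixed total for every other gene. Calls of members in liver are therefore given both as deposited and after rescaling to the same total without those genes. Other liver values are as deposited unless said otherwise. In skin they held 0.843% to 4.66%. Libraries of skin stood apart from each other. The first replicates of both skin groups had 28357 and 28870 genes above 0, against 21328 to 23494 in the other skin libraries. Skin CCl4 replicate 3 held a summed 159 TPM of 3 Langerhans cell markers, against 8333 to 31691 TPM in the other 5. Nearly all of the sum in those 5 was Cd74, at 8268 to 31489 TPM, against 45.0 TPM in CCl4 replicate 3. Cd207 was also lowest in that library, at 1.08 TPM. Epcam went the other way, and its 113 TPM there was the highest of all skin libraries. Cx3cr1, the gene for which the skin cells are named, was at 5.28, 0 and 0.28 TPM in the CCl4 libraries and 3.91, 0.27 and 0.91 TPM in the vehicle libraries of skin. Markers of other cells were present in every skin library. Sums were 377 to 3197 TPM for 7 keratinocyte markers, 321.5 to 5426 TPM for 5 stellate and fibroblast markers and 89.3 to 3481 TPM for 6 macrophage markers. The name CX3CR1+ follows the labels, and the purity of the cells was not tested.

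All 20 sterol genes were lower in CCl4 livers than in vehicle livers. They were called lower by limma at an adjusted p under 0.05 as deposited, where 51.1% of the 10385 genes tested were called lower and 10.3% higher. The log2 changes of the sterol genes ran over −2.79 to −1.23 with a median of −2.08, and the median of all genes was −0.59. In 19 of the 20 genes every CCl4 library lay below every vehicle library as deposited, which held for 58.8% of all genes tested. On the rescaled values this held for 9 of the 20, and in 1, Srebf2, every CCl4 library lay above every vehicle library. The share of all genes that lay apart on the rescaled values is not given here. Rescaling moved the median of all genes to 0.90 and that of the sterol genes to −0.49. On that scale 8 sterol genes were still called lower, none was called higher, and 3.58% of 12582 genes were called lower and 67.8% higher.

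The enzymes at the start of the sterol branch make mevalonate and turn it into isoprenoid units. Hmgcs1, the synthase that condenses acetyl-CoA units into the precursor of mevalonate, had 15.2, 21.8 and 46.3 TPM in CCl4 livers, against 185, 108 and 142 TPM in vehicle livers. The groups did not overlap, and the log2 change was −2.46 ± 0.40 (SE, n = 3 per group, limma adjusted p = 0.000621). Mvk and Pmvk, the kinases that phosphorylate mevalonate, averaged 2.75 ± 1.71 and 15.4 ± 6.16 TPM in CCl4 livers, against 16.2 ± 1.66 and 57.7 ± 8.27 TPM in vehicle livers (SD, n = 3 each). Mvd, which decarboxylates the product, averaged 3.16 ± 1.48 TPM in CCl4 livers and 9.86 ± 2.44 TPM in vehicle livers. Idi1, the isomerase that gives the reactive isoprenoid unit, had 10.5, 8.29 and 27.2 TPM in CCl4 livers, against 108, 87.9 and 94.3 TPM in vehicle livers, again with no overlap. Its log2 change was −2.76 ± 0.39 (adjusted p = 0.000292). Fdps, the farnesyl diphosphate synthase, was the most abundant sterol gene in vehicle livers and averaged 65.7 ± 37.3 TPM in CCl4 livers and 308 ± 16.6 TPM in vehicle livers. Of these 6 genes, Hmgcs1, Mvk, Idi1 and Fdps were called lower as deposited and under all 3 other scalings (rescaled, median-ratio and quantile). As deposited, CCl4 livers held 19.1%, 17.0%, 15.8% and 21.3% of the mean vehicle TPM of these genes. Rescaled, the falls were smaller, with 57.2%, 50.7%, 46.8% and 64.1% held. Pmvk and Mvd lost their calls when rescaled, at −0.26 and −0.02.

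Enzymes of the middle and late steps make squalene, close it into a ring and trim the ring to cholesterol. Fdft1, the squalene synthase, averaged 13.4 ± 7.89 TPM in CCl4 livers and 69.4 ± 12.1 TPM in vehicle livers. Sqle, the squalene epoxidase that is a rate-limiting step, had 6.66, 13.0 and 20.1 TPM in CCl4 livers, against 36.7, 28.6 and 33.4 TPM in vehicle livers. Sqle fell by 1.36 as deposited (adjusted p = 0.00672) and was not called when rescaled, at 0.26 ± 0.24 (adjusted p = 0.350). Msmo1, the sterol methyl oxidase, had 12.5, 26.4 and 33.9 TPM in CCl4 livers and 181, 109 and 154 TPM in vehicle livers. Nsdhl, the dehydrogenase acting in the same demethylation, had 4.74, 6.90 and 14.2 TPM in CCl4 livers, against 48.0, 45.9 and 49.1 TPM in vehicle livers. Neither gene's groups overlapped, and the log2 changes were −2.64 ± 0.38 (adjusted p = 0.000333) for Msmo1 and −2.46 ± 0.34 (adjusted p = 0.000261) for Nsdhl. Tm7sf2, a sterol reductase, had the largest fall in log2 terms among the sterol genes. It had 9.29, 8.05 and 22.2 TPM in CCl4 livers and 83.1, 90.9 and 92.2 TPM in vehicle livers, a change of −2.79 ± 0.36 (adjusted p = 0.000178). Fdft1, Msmo1, Nsdhl and Tm7sf2 kept their calls under the 3 other scalings. As deposited, CCl4 livers held 19.3%, 16.4%, 18.1% and 14.9% of the mean vehicle TPM of these genes. Rescaled, the falls were smaller, with 57.8%, 51.0%, 54.3% and 44.8% held. Lss (lanosterol synthase), Cyp51 (lanosterol demethylase), Hsd17b7 (a sterol ketoreductase), Sc5d (a sterol desaturase), Dhcr7 (the last reductase of the pathway) and Ebp (a sterol isomerase) fell by 1.55 to 2.17 as deposited. None of these 6 was called when rescaled, at −0.57 to −0.06.

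Regulators and the carrier of the sterol branch changed least in log2 terms among the called sterol genes, together with Sqle and Mvd. Srebf2, the driver of the branch, had 3.25, 4.26 and 5.74 TPM in CCl4 livers, against 11.5, 11.3 and 12.2 TPM in vehicle livers. Insig1, the retention factor whose own transcription follows SREBP activity, had 37.3, 61.4 and 109 TPM in CCl4 livers and 228, 109 and 168 TPM in vehicle livers. It was the 1 sterol gene whose groups overlapped as deposited. Stard4, a cytosolic cholesterol carrier, averaged 7.54 ± 4.08 TPM in CCl4 livers and 18.0 ± 3.95 TPM in vehicle livers. These 3 genes fell by 1.25, 1.34 and 1.23 as deposited, with limma adjusted p of 0.00114, 0.0175 and 0.00756. None was called when rescaled, where the shift of all genes brought them to 0.26, 0.36 and 0.34. On that scale Srebf2 had 18.2, 21.6 and 18.0 TPM in CCl4 livers, all above the 16.0, 15.3 and 16.4 TPM of vehicle livers. Over the 20 genes, 8 held their lower call under all 3 other scalings, and 4.21% of all genes tested did so. Median-ratio scaling and quantile normalization, which called 21.3% and 24.1% of genes lower and 20.8% and 17.6% higher, each called 17 sterol genes lower.

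**Figure D1:**
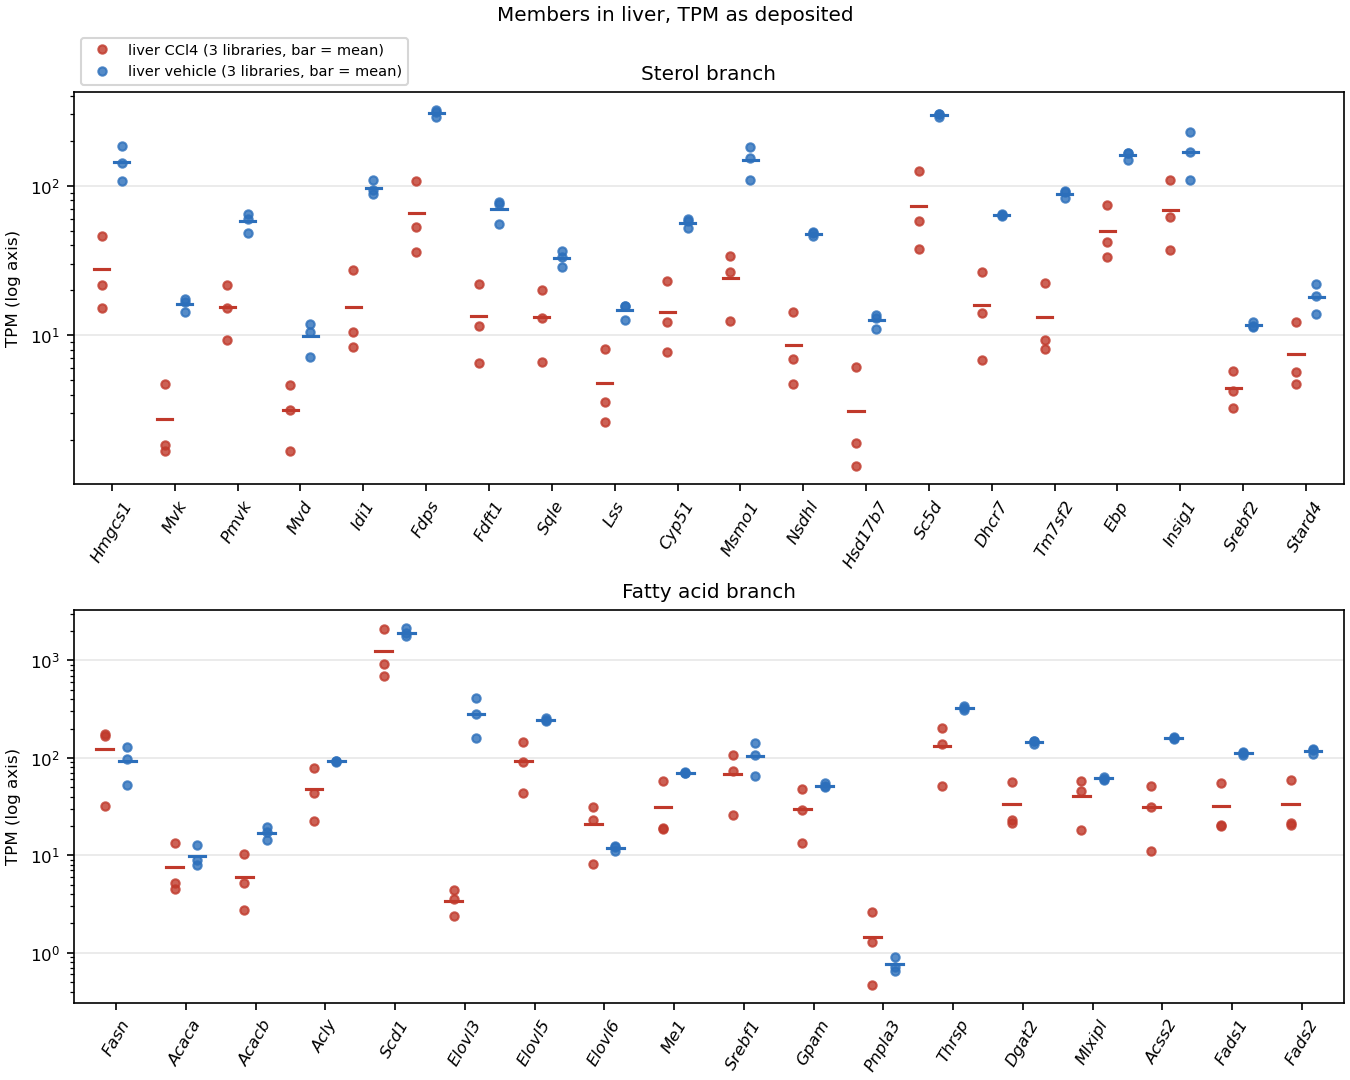
TPM as deposited (log axis) of the 20 sterol genes (top) and 18 fatty acid genes (bottom) in CCl4 livers (red) and vehicle livers (blue); points are libraries, bars are means of 3. In 19 sterol and 12 fatty acid genes the red points all lie below the blue ones; Elovl3 shows the widest gap, and Fasn and Elovl6 overlap.

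The fatty acid branch was less uniform. As deposited, 10 of its 17 tested genes were called lower in CCl4 livers, none was called higher, and 7 were not called, beside 51.1% of all genes lower and 10.3% higher. Those not called were Fasn, Acaca, Scd1, Elovl6, Srebf1, Gpam and Mlxipl. The median log2 change was −1.33, with a range of −5.93 to 0.57. In 12 of 18 genes the CCl4 libraries all lay below the vehicle libraries as deposited, beside 58.8% of all genes. On the rescaled values they all lay below in 3 of 18 genes and all above in 7, and the share of all genes is not given here. When rescaled, 2 genes were called lower, Elovl3 and Dgat2, and 7 were called higher, Fasn, Acaca, Scd1, Elovl6, Gpam, Pnpla3 and Mlxipl, beside 3.58% of all genes lower and 67.8% higher. The branch's median was then 0.46, below the 0.90 of all genes. Pnpla3, a lipid droplet acylhydrolase, missed the filter on low TPM as deposited, with 0.47, 1.28 and 2.61 TPM in CCl4 livers and 0.91, 0.65 and 0.72 TPM in vehicle livers (difference of 0.39 in log2(TPM + 1), two-sided exact permutation p = 0.4, n = 3 per group).

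Enzymes that make palmitate showed no common change. Acly, which splits citrate into acetyl-CoA, and Acss2, which makes acetyl-CoA from acetate, were called lower as deposited, by 1.09 and 2.56. Acss2 had 11.2, 31.1 and 51.6 TPM in CCl4 livers, against 155, 165 and 161 TPM in vehicle livers, with no overlap (adjusted p = 0.000929); it lost its call when rescaled, at −0.90. Acaca, the acetyl-CoA carboxylase that feeds synthesis, had 4.48, 5.15 and 13.3 TPM in CCl4 livers, against 8.04, 12.8 and 8.89 TPM in vehicle livers. Its groups overlapped, and its change was −0.45 ± 0.35 as deposited (adjusted p = 0.271) but 1.12 when rescaled. Acacb, the isoform at mitochondria that restrains fatty acid oxidation, had 2.73, 5.21 and 10.2 TPM in CCl4 livers and 14.2, 19.7 and 17.3 TPM in vehicle livers. It fell by 1.49 as deposited (adjusted p = 0.00420) and stood at 0.02 when rescaled. Fasn, the fatty acid synthase, had 32.1, 175 and 168 TPM in CCl4 livers, against 128, 53.2 and 97.4 TPM in vehicle livers. Both groups spread widely and overlapped, and the change was 0.17 ± 0.59 (adjusted p = 0.809). Rescaled, Fasn had 179, 884 and 525 TPM in CCl4 livers and 179, 71.9 and 131 TPM in vehicle livers, a log2 change of 1.87 called higher. Me1, the malic enzyme that supplies NADPH, averaged 31.7 ± 22.3 TPM in CCl4 livers and 70.4 ± 0.679 TPM in vehicle livers and was called lower as deposited, at −1.33, yet stood at 0.34 when rescaled.

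Genes that lengthen and desaturate fatty acids differed among themselves. Elovl3, an elongase of saturated and monounsaturated very long chains, had 3.52, 2.39 and 4.37 TPM in CCl4 livers, against 160, 410 and 283 TPM in vehicle livers. CCl4 livers thus held 1.21% of the mean vehicle level, the groups were far apart, and the fall of 5.93 ± 0.36 kept its call under the 3 other scalings (−4.51 when rescaled). Elovl6, the elongase that takes palmitate to stearate, had 8.12, 22.9 and 31.1 TPM in CCl4 livers and 12.2, 12.4 and 10.99 TPM in vehicle livers. CCl4 replicate 1 lay below and the other CCl4 libraries above all vehicle libraries; the change was 0.57 ± 0.40 as deposited (adjusted p = 0.225), and it was called higher when rescaled at 2.24, under median-ratio scaling at 1.28 and under quantile normalization at 1.35. Scd1, the desaturase that makes oleate, was the most abundant member in liver, with 686, 924 and 2108 TPM in CCl4 livers and 1766, 2138 and 1897 TPM in vehicle livers. Its change was −0.81 ± 0.39 (adjusted p = 0.0884) as deposited, with overlapping groups, and 0.90 when rescaled. The genes of polyunsaturated fatty acid synthesis, Fads1 and Fads2 (desaturases) and Elovl5 (their elongase), were lower together as deposited. Fads1 had 19.9, 20.6 and 55.8 TPM in CCl4 livers, against 107, 113 and 115 TPM in vehicle livers. Fads2 had 21.4, 20.6 and 59.6 TPM in CCl4 livers, against 111, 123 and 121 TPM in vehicle livers, and neither gene's groups overlapped. The falls were 1.93 ± 0.39 and 1.95 ± 0.40 (adjusted p = 0.00170 and 0.00179), and Elovl5 fell by 1.56 (adjusted p = 0.00717). When rescaled none of the 3 was called, at −0.26, −0.28 and 0.14.

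Of the genes of triglyceride assembly, Dgat2, the acyltransferase of the last step, had 21.6, 23.2 and 56.4 TPM in CCl4 livers, against 140, 148 and 151 TPM in vehicle livers. It fell by 2.22 ± 0.37 (adjusted p = 0.000700) and kept its call under the 3 other scalings. CCl4 livers held 23.1% of the mean vehicle TPM of Dgat2 as deposited and 69.5% when rescaled. Gpam, the acyltransferase of the first step, averaged 30.1 ± 17.1 TPM in CCl4 livers and 52.0 ± 2.51 TPM in vehicle livers, with no overlap; it was not called as deposited (−0.94, adjusted p = 0.0585) and was called higher when rescaled, at 0.73. Thrsp, a small nuclear protein that follows lipogenesis, had 52.0, 138 and 202 TPM in CCl4 livers and 340, 310 and 327 TPM in vehicle livers. It fell by 1.51 (adjusted p = 0.0121) as deposited and stood at 0.19 when rescaled. The transcription factors of the branch were not called as deposited. Srebf1 had 25.8, 72.5 and 107 TPM in CCl4 livers, against 141, 65.8 and 107 TPM in vehicle livers, and Mlxipl had 18.3, 45.7 and 58.3 TPM in CCl4 livers, against 64.1, 59.8 and 60.4 TPM in vehicle livers. Srebf1 libraries overlapped and Mlxipl libraries did not; the changes of −0.75 and −0.73 (adjusted p = 0.193 and 0.125) became 0.94 and 0.95 when rescaled, of which Mlxipl was called higher.

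**Figure D2:**
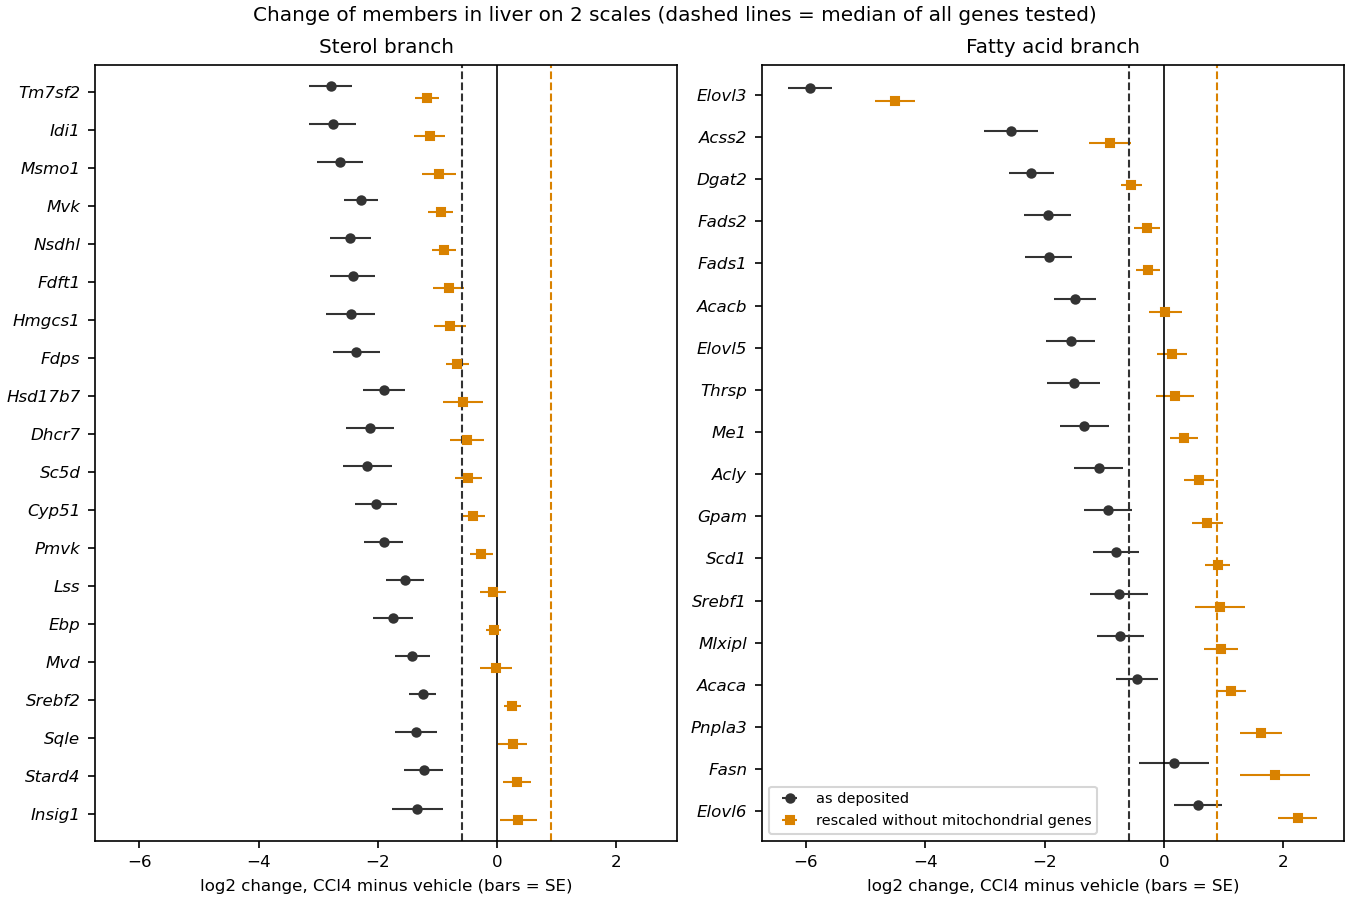
Log2 change, CCl4 minus vehicle, of each tested sterol gene (left) and fatty acid gene (right) in liver, as deposited (black circles) and rescaled without mitochondrial genes (orange squares); bars are SE, dashed lines the median of all genes on each scale. On both scales every sterol gene lies to the left of its dashed line, while Fasn, Elovl6 and Acaca lie to the right of it.

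Comparisons within a library depend little on the library total. The mean log2(TPM + 1) of the fatty acid genes exceeded that of the sterol genes by 0.93, 1.29 and 1.21 in CCl4 livers, against 0.32, 0.67 and 0.43 in vehicle livers. The summed TPM of the fatty acid branch was 4.02, 4.50 and 4.56 times that of the sterol branch in CCl4 livers, against 1.81, 2.55 and 2.05 times in vehicle livers. Scd1 made up much of these sums, and without it they were 1.28, 2.01 and 1.61 times the sterol sum in CCl4 livers, against 0.921, 1.22 and 1.03 times in vehicle livers. In these 3 measures each CCl4 library lay above each vehicle library, without Scd1 by a narrow margin. Of 6 pairs of members compared by exact permutation test, 3 did not overlap between groups, at the smallest p that 3 libraries against 3 allow (0.1 each, two-sided, 0.2 adjusted over the 6 pairs). On TPM + 1, the log2 ratio of Fasn to Hmgcs1 was 1.03, 2.94 and 1.83 in CCl4 livers and −0.53, −1.0 and −0.54 in vehicle livers. That of Elovl6 to Elovl5 was −2.28, −1.92 and −2.20 in CCl4 livers, against −4.19, −4.25 and −4.37 in vehicle livers. The first pair sets 1 fatty acid enzyme against 1 sterol enzyme, and the second sets the elongase of palmitate against that of polyunsaturated chains. Both ratios were higher in CCl4 livers. The pairs were chosen with earlier results of these data known, and 1 pair does not stand for its branches. Mean TPM in vehicle livers over CCl4 livers was 5.22 for Hmgcs1 and 0.744 for Fasn, but 5.13 for Acss2 and 82.9 for Elovl3. The remaining fatty acid genes lay below the value of Hmgcs1. The log2 ratio of Acacb to Acaca was −0.56, 0.01 and −0.35 in CCl4 livers, all below the 0.75, 0.58 and 0.89 of vehicle livers. The remaining ratios overlapped. Fads2 to Fads1 differed by −0.02 between the groups (exact p = 0.8), Mlxipl to Srebf1 by 0.03 (exact p = 1) and Srebf1 to Srebf2 by 0.50 (exact p = 0.4).

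**Figure D3:**
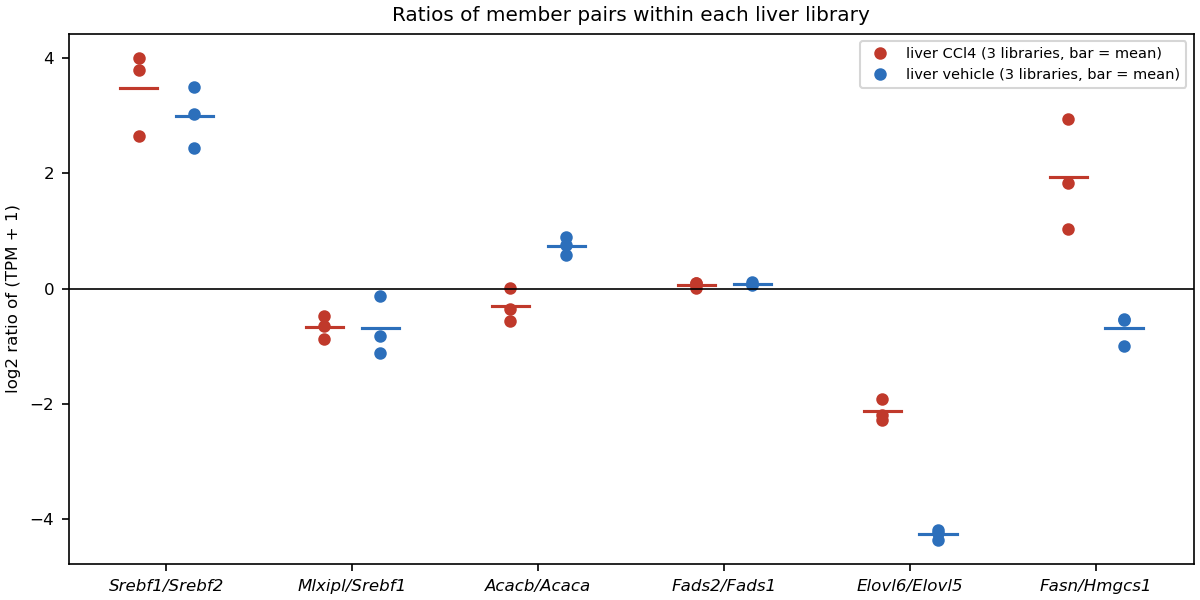
Log2 ratio of 6 pairs of members within each liver library for CCl4 (red, left of each pair) and vehicle (blue); points are libraries, bars are means of 3. The groups are apart for Acacb/Acaca, Elovl6/Elovl5 and Fasn/Hmgcs1 and overlap for the other pairs, and Fads2/Fads1 stays near 0 in all 6 libraries.

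Promoter sequence was compared because the sterol genes moved together. RefSeq promoter windows on GRCm38.p6, each 250 bases before to 50 bases after a start, were used for 30 members (16 sterol and 14 fatty acid genes, 38 windows). No window was used for Fdps, Fdft1, Sqle, Stard4, Scd1, Elovl3, Dgat2 and Fads1. Member windows on 1 chromosome were left out by rule, whereas the share over all windows kept that chromosome. The motif CCAAT, the box bound by NF-Y, a partner of SREBP, was sought on both strands. It was in 84.2% of 19 sterol windows and 63.2% of 19 fatty acid windows, beside 37.4% of all 32851 windows. GGGCGG, the Sp1 box, was in 84.2%, 47.4% and 35.7%, CACGTG, the E-box, in 21.1%, 10.5% and 7.15%, and TCACNCCAC, a sterol regulatory element core, in 5.26%, 5.26% and 1.24%. Several windows of 1 gene overlap or share sequence, and by gene CCAAT was in 16 of 16 sterol and 11 of 14 fatty acid genes. A gene was counted if any of its windows matched. No share by gene was counted over all genes, and a link of motifs to the changes was not tested. A match is letters only, not a measured site. The 250 bases before the start are shown for the 5 sterol genes with the largest falls and for the 2 fatty acid genes that were not called as deposited and were highest when rescaled. They lie at chr19:6067851-6068100 (Tm7sf2, minus strand), chrX:72918271-72918520 (Nsdhl, plus strand), chr13:119690101-119690350 (Hmgcs1, plus strand), chr13:8885356-8885605 (Idi1, plus strand), chr8:64733579-64733828 (Msmo1, minus strand), chr11:120824548-120824797 (Fasn, minus strand) and chr3:129532136-129532385 (Elovl6, plus strand). Each is written 5′ to 3′ on the gene's strand, and capitals mark CCAAT, its reverse complement ATTGG and, in Hmgcs1, the sterol regulatory element core.
Tm7sf2: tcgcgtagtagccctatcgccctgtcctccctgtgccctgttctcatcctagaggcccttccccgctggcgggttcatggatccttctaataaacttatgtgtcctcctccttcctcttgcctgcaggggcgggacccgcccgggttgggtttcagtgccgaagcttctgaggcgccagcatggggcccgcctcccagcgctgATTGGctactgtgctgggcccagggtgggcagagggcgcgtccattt
Hmgcs1: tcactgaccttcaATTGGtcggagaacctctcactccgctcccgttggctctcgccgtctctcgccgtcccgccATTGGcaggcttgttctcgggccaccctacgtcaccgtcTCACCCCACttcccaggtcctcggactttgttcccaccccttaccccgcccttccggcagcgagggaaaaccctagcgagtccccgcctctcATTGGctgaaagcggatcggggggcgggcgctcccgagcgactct
Idi1: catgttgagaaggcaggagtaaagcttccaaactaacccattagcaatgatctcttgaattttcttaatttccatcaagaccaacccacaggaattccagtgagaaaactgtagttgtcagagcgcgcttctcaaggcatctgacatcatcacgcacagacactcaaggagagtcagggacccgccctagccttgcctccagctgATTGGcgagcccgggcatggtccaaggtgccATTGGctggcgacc
Msmo1: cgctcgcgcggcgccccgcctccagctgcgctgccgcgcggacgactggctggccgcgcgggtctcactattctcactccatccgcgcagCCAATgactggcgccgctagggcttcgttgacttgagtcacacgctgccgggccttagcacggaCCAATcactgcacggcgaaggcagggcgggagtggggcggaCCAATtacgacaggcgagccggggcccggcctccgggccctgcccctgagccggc
Nsdhl: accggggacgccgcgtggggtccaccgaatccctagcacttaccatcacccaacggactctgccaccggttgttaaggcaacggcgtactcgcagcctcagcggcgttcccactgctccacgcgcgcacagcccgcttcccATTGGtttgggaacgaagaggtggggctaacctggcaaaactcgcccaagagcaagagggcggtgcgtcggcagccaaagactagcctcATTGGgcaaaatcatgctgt
Fasn: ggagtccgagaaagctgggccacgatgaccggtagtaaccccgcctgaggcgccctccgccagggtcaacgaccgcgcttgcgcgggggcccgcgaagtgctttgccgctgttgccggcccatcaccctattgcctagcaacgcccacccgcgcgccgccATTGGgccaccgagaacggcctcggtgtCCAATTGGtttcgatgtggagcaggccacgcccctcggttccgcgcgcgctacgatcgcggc
Elovl6: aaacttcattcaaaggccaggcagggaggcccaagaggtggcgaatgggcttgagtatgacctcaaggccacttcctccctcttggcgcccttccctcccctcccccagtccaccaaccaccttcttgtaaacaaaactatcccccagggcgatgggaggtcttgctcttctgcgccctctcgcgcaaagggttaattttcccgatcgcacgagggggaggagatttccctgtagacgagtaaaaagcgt
The Hmgcs1 stretch holds 3 boxes on the reverse strand and the core between the second and the third. Tm7sf2, the gene with the largest fall, holds 1 box, Idi1 and Nsdhl 2 each and Msmo1 3. Fasn, which was not called lower on any scale, also holds 3 boxes, of which a pair overlap head to head as CCAATTGG, and Elovl6 holds none of the 4 motifs.

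Other genes of both pathways were also mostly called lower as deposited, beside 51.1% of all genes. Of 20 listed partners of sterol synthesis 17 were tested as deposited, of which 12 were called lower and 1 higher, with a median of −1.14. Scap, the escort of SREBP, averaged 4.87 ± 1.99 TPM in CCl4 livers and 25.6 ± 2.0 TPM in vehicle livers. Insig2, the isoform of Insig1 that predominates in liver, averaged 57.5 ± 29.5 TPM in CCl4 livers and 294.7 ± 47.1 TPM in vehicle livers. Scap and Insig2 fell by 2.23 and 2.44, and Abcg8, a sterol exporter to bile, and Acat2, which makes acetoacetyl-CoA, fell by 2.37 and 2.18. When rescaled the first 3 kept a lower call and Acat2 lost it, while 12 of 19 partners tested were then called higher, beside 67.8% of all genes. Of 26 listed partners of fatty acid synthesis 24 were tested, of which 18 were called lower and 1 higher, with a median of −1.49. Lpin1 (phosphatidate phosphatase) fell by 2.80, Slc25a1 (the mitochondrial citrate carrier) by 2.54, Gpat4 (a glycerol phosphate acyltransferase) by 1.78 and Plin5 (a lipid droplet coat protein) by 1.67. Lpin1 and Slc25a1 kept a lower call when rescaled, and 10 of 25 partners tested were then called higher, beside the same 67.8% of all genes.

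Cell type markers moved with these changes in liver. All 8 hepatocyte markers were called lower as deposited, with a median change of −2.19 and summed levels of 12981, 14992 and 30684 TPM in CCl4 livers, against 65202, 72497 and 70185 TPM in vehicle livers. Rescaled, those sums were 72507, 75897 and 96215 TPM in CCl4 livers and 91048, 97867 and 94406 TPM in vehicle livers, and the groups overlapped. All 6 macrophage markers, 4 of 4 tested stellate and fibroblast markers and 4 of 4 endothelial markers were called higher as deposited. The macrophage sum was 164, 185 and 65.9 TPM in CCl4 livers, against 16.3, 38.4 and 24.2 TPM in vehicle livers. Rescaled, that sum was 916, 935 and 207 TPM in CCl4 livers and 22.8, 51.8 and 32.5 TPM in vehicle livers. Of 6 adipocyte markers, Fabp4, which endothelial cells and macrophages also express, had 21.7, 61.5 and 14.8 TPM in CCl4 livers, against 2.07, 1.35 and 1.62 TPM in vehicle livers, and was called higher. The adipocyte markers Adipoq, Lep and Retn were listed at 0 in every liver library, Plin1 and Cfd in every CCl4 liver, and 5 of 8 sebaceous gland markers in every liver library. Fewer cells of a type and less RNA per cell cannot be told apart in bulk samples, and the part of the marker shifts in the members' changes was not tested. CCl4 replicate 3, which had the smallest mitochondrial share and the largest hepatocyte sum of the CCl4 livers, had the highest TPM of its group in 37 of the 38 members, all but Fasn. That count is as deposited, where a smaller mitochondrial share leaves more of the total for every other gene. The share of all genes highest in that library was not counted. When rescaled, it was also not the highest for Pmvk, Mvd, Sqle, Msmo1, Srebf2, Elovl3, Elovl6, Srebf1, Thrsp and Mlxipl.

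In skin no member was called between CCl4 and vehicle. Limma called 0 of 13767 genes (0.0%) in either direction, with 288 genes at an unadjusted p under 0.05, none of them a member; all 20 sterol genes and 16 of 18 fatty acid genes were tested. The median log2 changes were 0.09 for the sterol and −0.16 for the fatty acid genes, beside −0.05 for all genes. Standard errors of the members ran over 0.52 to 1.83 in log2 terms, against 0.23 to 0.59 in liver. Acacb and Mlxipl were under the filter on low TPM, with Mlxipl at 0.24, 0.50 and 0.04 TPM in CCl4 and 0.02, 0.23 and 0 TPM in vehicle libraries (exact permutation p = 0.2). Acacb was at 1.37, 0.15 and 0 TPM in CCl4 libraries and 1.71, 0.09 and 0 TPM in vehicle libraries (exact permutation p = 1).

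Sterol genes in skin varied widely within a treatment. Tm7sf2 had 10.3, 3.25 and 0.97 TPM in CCl4 skin cells and 9.77, 5.82 and 6.54 TPM in vehicle skin cells, a change of −0.85 ± 0.77. Sqle had 36.7, 29.1 and 32.5 TPM in CCl4 skin cells, against 44.5, 32.1 and 5.42 TPM in vehicle skin cells (0.66 ± 0.80). Vehicle replicate 3 was low not for Sqle alone. That library held 4.86 TPM of Hmgcs1, 8.93 TPM of Idi1, 5.72 TPM of Cyp51 and 3.97 TPM of Insig1, below all 5 other skin libraries, whose lowest values were 24.2, 43.6, 23.8 and 14.8 TPM. It also held 9.97 TPM of Srebf2, against 25.5 to 66.1 TPM in the others, and was the lowest of the 6 for 12 of 20 sterol genes, yet it held 282 TPM of Fdps, the highest of the 6. Mvd was at 0.49 ± 0.75, Fdft1 at 0.42 ± 0.67 and Msmo1 at 0.39 ± 0.67. Without vehicle replicate 3, Sqle, Fdft1 and Msmo1 turned to −0.21, −0.11 and −0.12, and no member was called. All 20 sterol genes overlapped between treatments, where 2.72% of all genes lay apart with CCl4 lower and 2.56% with CCl4 higher.

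Several fatty acid genes in skin were high in single libraries. Scd1 had 388, 55.0 and 2.32 TPM in CCl4 skin cells and 671, 56.9 and 8.70 TPM in vehicle skin cells. Elovl3 had 81.5, 7.06 and 0 TPM in CCl4 skin cells and 91.6, 0.65 and 1.38 TPM in vehicle skin cells. Elovl5 and Elovl6 had the same shape, at 383 and 98.1 TPM in CCl4 replicate 1 and 423 and 136 TPM in vehicle replicate 1, above the other 4 libraries. The first replicate of both groups was high. Those libraries also held summed sebaceous gland markers of 952 TPM (CCl4) and 848 TPM (vehicle), against 37.4 to 245 TPM in the other 4. Elovl4 made up most of these sums, at 638 and 516 TPM, and was at 239 TPM in CCl4 replicate 3. Awat2, a wax synthase of that gland, was at 68.5 and 38.4 TPM in the first replicates and 0 to 2.34 TPM elsewhere. Each listed marker was highest in the first replicates except Pparg. Pparg had 13.1 and 18.1 TPM there, against 38.8 TPM in CCl4 replicate 2 and 49.3 TPM in vehicle replicate 2. Thrsp had 1.26, 86.6 and 0.48 TPM in CCl4 skin cells, against 2.95, 6.83 and 25.7 TPM in vehicle skin cells. It was highest in CCl4 replicate 2 and vehicle replicate 3, the libraries with the highest adipocyte marker sums, 7127 and 889 TPM, against 62.6 to 211 TPM in the others; Adipoq was at 93.4 and 12.8 TPM in them. The part of these cell types in the members' levels was not tested. Without both libraries numbered 1 no member was called either. Acaca had 1.48, 0.71 and 1.01 TPM in CCl4 skin cells, all below the 1.57, 4.82 and 2.40 TPM of vehicle skin cells, a change of −0.86 ± 0.53. Fads1 likewise had 4.27, 4.89 and 5.46 TPM in CCl4 skin cells, below 5.52, 21.5 and 6.82 TPM in vehicle skin cells (−0.84 ± 0.70), and Pnpla3 had 3.73, 4.76 and 1.95 TPM in CCl4 skin cells, above 0.36, 1.67 and 1.91 TPM in vehicle skin cells (0.98 ± 0.57). These 3 of 18 fatty acid genes did not overlap, by narrow margins, and limma's adjusted p was 0.9999 for each. When rescaled, Pnpla3 overlapped. Scd1 and Elovl5, at −0.79 ± 1.83 and −0.67 ± 1.35, turned to 1.03 and 0.50 without CCl4 replicate 3, and to 0.81 and 0.27 without vehicle replicate 1. Fasn had 51.7, 17.3 and 8.83 TPM in CCl4 skin cells and 54.5, 20.6 and 11.2 TPM in vehicle skin cells, and Srebf1 13.4, 31.3 and 7.34 TPM in CCl4 and 10.2, 19.9 and 16.7 TPM in vehicle skin cells. All 6 ratios of member pairs overlapped between treatments in skin. The widest mean differences in log2 ratio were 1.26 for Fads2 to Fads1, at −0.15 ± 0.60 in CCl4 and −1.41 ± 0.93 in vehicle skin cells (SD, n = 3 each), and 0.82 for Acacb to Acaca; with 3 libraries against 3 no exact p could fall below 0.1.

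**Figure D4:**
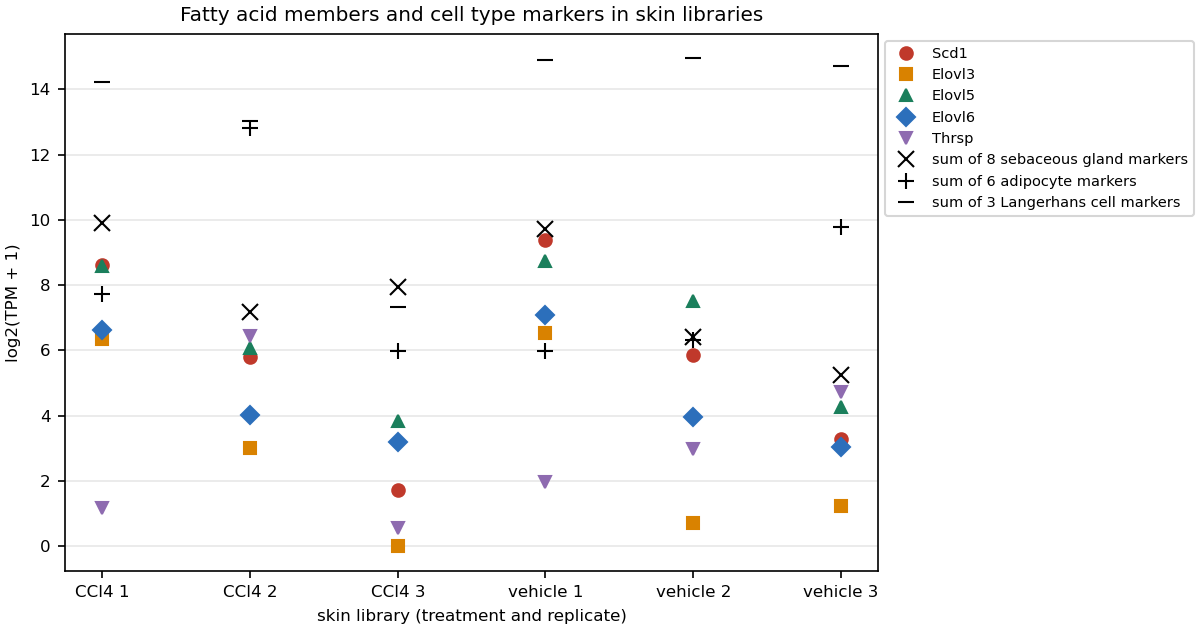
Log2(TPM + 1) of 5 fatty acid genes (coloured) and of summed cell type markers (black) in each skin library, CCl4 left and vehicle right. Scd1, Elovl3, Elovl5 and Elovl6 are highest in the libraries numbered 1, where the sebaceous sum is also highest (952 and 848 TPM), Thrsp is highest in CCl4 2, where the adipocyte sum is 7127 TPM, and the Langerhans sum is lowest in CCl4 3 (159 TPM). The sebaceous sum of the libraries numbered 1 is mostly Elovl4. Langerhans sums are mostly Cd74 except in CCl4 3, where Epcam is the larger part.

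The liver effect of CCl4 minus its skin effect was tested in a model of all 12 libraries. The model shared 1 spread over the groups, though skin libraries varied more. Assay, strain and material also differ with tissue, so a difference of effects cannot be assigned to tissue alone. Of 35 members that passed the filter in both tissues none was called, and 20 of 9255 genes were (0.216%). All 20 sterol genes had a difference below 0 as deposited and 16 when rescaled, with a median as deposited of −2.03 beside −0.54 for all genes, and 14 of them had an unadjusted p under 0.05, as did 4 of 15 fatty acid genes and 1872 of all genes. The lowest limma adjusted p were those of Dgat2 (−2.68 ± 0.58, adjusted p = 0.0669), Nsdhl (−2.25 ± 0.57, adjusted p = 0.0855), Msmo1 (−3.02 ± 0.76, adjusted p = 0.0858) and Fdps (−2.37 ± 0.60, adjusted p = 0.0860). The median difference of the fatty acid genes was −0.89. Rescaled, the median differences were −0.51 for sterol, 0.76 for fatty acid and 0.98 for all genes, and again no member was called, where 7.08% of all genes were. Leaving out liver CCl4 replicate 3, skin vehicle replicate 3 or skin CCl4 replicate 1 gave 5, 4 and 2 members called. Calls over all genes rose as well, to 150 of 8691, 424 of 9188 and 330 of 9083.

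Vehicle libraries gave the members' levels by tissue. Assay, strain and the material taken (liver or cells labelled CX3CR1+) differ with tissue and cannot be told apart from it. The median of all genes was −1.17 (liver minus skin). In vehicle livers the most abundant members by mean TPM were Scd1 (1933 ± 189), Thrsp (326 ± 14.7), Fdps (308 ± 16.6), Sc5d (296 ± 8.71) and Elovl3 (284 ± 125), and neighbours in the order after Scd1 overlapped between libraries. In vehicle skin cells they were Scd1 (245 ± 369), Elovl5 (208 ± 204), Fdps (206 ± 82.6), Msmo1 (132 ± 82.9) and Idi1 (105 ± 99.5), and all neighbours overlapped. Of the fatty acid genes, 13 of 17 tested were called higher in vehicle liver and none lower, beside 13.7% of 12864 genes higher and 47.6% lower, and the median difference was 3.43. In 13 of 18 every liver library lay above every skin library, beside 16.1% of all genes. Mlxipl averaged 61.4 ± 2.31 TPM in liver and 0.0833 ± 0.127 TPM in skin cells, a log2 difference of 5.85 ± 0.29. Thrsp, Elovl3, Fads2 and Scd1 were higher in liver by 5.12, 5.22, 4.92 and 4.74, with adjusted p of 0.000890, 0.0220, 7.65e-05 and 0.0244. With single libraries left out, Elovl3 ran over 4.16 to 7.07 and Scd1 over 3.29 to 6.35, and both lost their calls at times (adjusted p up to 0.0847 and 0.0885, each without skin vehicle replicate 2). Fasn and Acaca, at 1.85 and 1.53, also lost their calls at times, with ranges of 1.35 to 2.44 and 1.27 to 1.86. Without a filter on low TPM, Elovl3, Scd1 and Fasn were not called (adjusted p = 0.0608, 0.0674 and 0.0912). The 4 not called were Acly, Elovl5, Elovl6 and Me1. Of these Elovl6 had 11.9 ± 0.774 TPM in liver and 52.6 ± 72.2 TPM in skin cells, where vehicle replicate 1 alone had 136 TPM.

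Sterol genes differed less between the tissues. As deposited, 5 of 20 were called higher in vehicle liver (Tm7sf2, Dhcr7, Sc5d, Nsdhl and Ebp) and none lower, beside 13.7% of all genes higher and 47.6% lower, with a median difference of 0.81. In 9 of 20 the libraries did not overlap between tissues, all higher in liver, beside 16.1% of all genes. Tm7sf2 averaged 88.7 ± 4.93 TPM in liver and 7.38 ± 2.10 TPM in skin cells (3.45 ± 0.28, adjusted p = 0.000136), and Dhcr7 63.7 ± 1.13 TPM in liver and 6.30 ± 3.18 TPM in skin cells (3.26 ± 0.42, adjusted p = 0.000811). Hmgcs1 and Insig1, at 2.11 and 2.55, were not called (adjusted p = 0.115 and 0.0693). Srebf2 averaged 11.7 ± 0.476 TPM in liver and 42.1 ± 28.9 TPM in skin cells, a difference of −1.41 that was not called (adjusted p = 0.117), whereas Srebf1 averaged 104.6 ± 37.6 TPM in liver and 15.6 ± 4.97 TPM in skin cells (2.65 ± 0.39, adjusted p = 0.00152). The sterol count depended on the scaling: it was 8 when rescaled, 16 under median-ratio scaling and 14 under quantile normalization, all higher in liver, beside 16.0%, 25.6% and 25.8% of all genes. It was 9 without skin vehicle replicate 3. Over both branches 31 members were called under median-ratio scaling and 29 under quantile normalization, beside 54.5% and 51.8% of all genes.

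**Figure D5:**
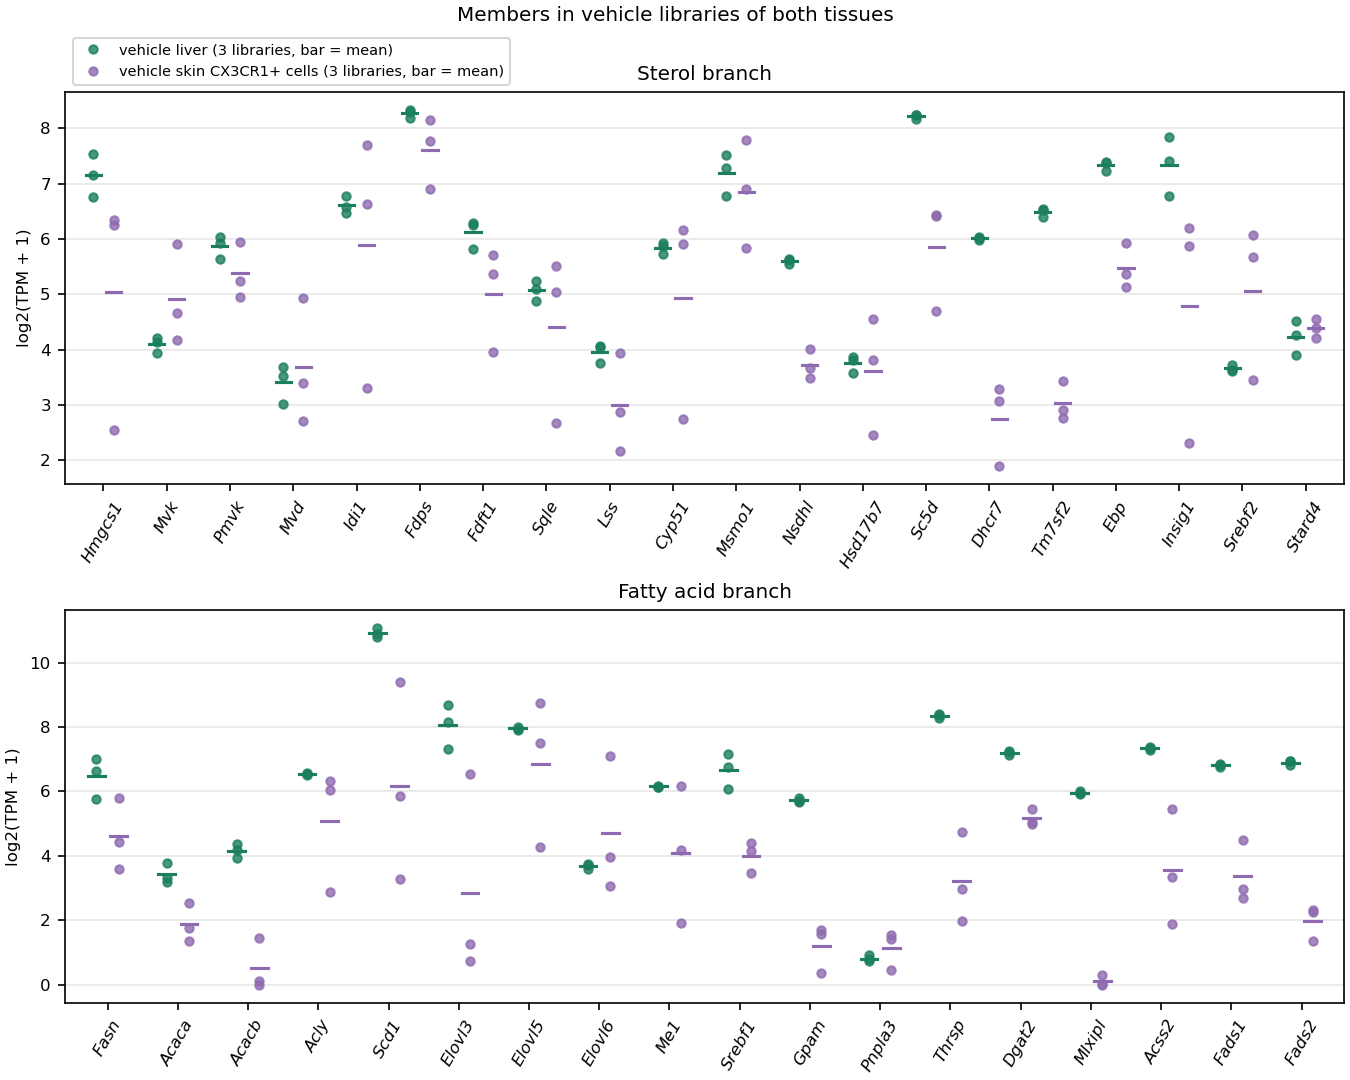
Log2(TPM + 1) of the sterol genes (top) and fatty acid genes (bottom) in vehicle liver (green, left of each pair) and vehicle skin CX3CR1+ cells (purple); points are libraries, bars are means of 3. Most fatty acid genes are far higher in liver, with Mlxipl near 0 in skin cells, while most sterol genes overlap or lie close; purple points spread more than green ones.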

How the data were processed

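Bulk liver and smart-seq skin RNA were measured in 12 libraries. The authors deposited TPM for 57180 gene IDs; per the submitters' processing notes, fastp, HISAT2, StringTie and RSEM were used with GRCm39, without versions or roles. TPM holds no depth, so no counting interval can be given. Symbols were found for 51884 IDs, and 66 IDs that shared one were left unnamed. No columns were identical. The labels give 1 protocol, with poly(A) selection, for all libraries.

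Genes reaching a TPM of 1 in 3 or more of 6 libraries were tested on log2(TPM + 1), which understates changes of low genes, in R 4.3.3 with limma 3.58.1 (lmFit, eBayes with trend, two-sided, Benjamini-Hochberg over all genes tested, called under 0.05), the source of all adjusted p for genes. Tissues were fitted alone, and their effects compared in 1 model of 4 group means. Single values and within-library ratios were compared by exact permutation tests, whose smallest p is 0.1. Scalings tried were TPM rescaled without 37 mitochondrial genes and 10 near copies (at least 95% identity over 80% of their length), median-ratio and quantile. The method was also run on simulated data, with planted changes in skin far larger than those of the members and only in well expressed genes. That run does not show the power for changes of the size seen in skin. Per-library values are given for the 5 tested members with the largest absolute change in each branch and tissue and for a set of regulators and key enzymes; 4 partners per list are named by p. Members, lists and rules were chosen with earlier results of these data known. Replicate numbers were not used to pair the samples in the main tests.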

Additional observations from a re-analysis of the deposited data

How the results depend on the processing

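Robust moderation, pseudocounts and filters on low TPM changed no count of called members in a tissue by over 1.5 times, whereas scaling did. Single liver calls did change with the filter. Without a filter on low TPM, Insig1, Acly, Me1 and Thrsp lost their lower calls (limma adjusted p = 0.0774, 0.116, 0.0709 and 0.0681). Gpam was called lower when a TPM of 5 was required (limma adjusted p = 0.0442). Rescaled without mitochondrial genes, 17 members were called in liver in place of 30: 8 sterol genes lower, 2 fatty acid genes lower and 7 higher. Under median-ratio scaling and quantile normalization 5 and 4 fatty acid genes were lower and 1 and 2 higher, and 1 fit over all 12 libraries called 18 members, 13 sterol and 5 fatty acid genes lower. That fit shares the wider spread of skin. Directions reversed when rescaled for Sqle (0.26), Insig1 (0.36), Srebf2 (0.26), Stard4 (0.34), Acaca (1.12), Acacb (0.024), Acly (0.59), Scd1 (0.90), Elovl5 (0.14), Me1 (0.34), Srebf1 (0.94), Gpam (0.73), Thrsp (0.19) and Mlxipl (0.95). They also reversed under median-ratio scaling for Acaca (0.22), Srebf1 (0.0025) and Mlxipl (0.022), and under quantile normalization for Acaca (0.12), Acly (0.13), Scd1 (0.98), Srebf1 (0.48), Gpam (0.088) and Mlxipl (0.39). The calls over all liver genes, 1073 higher and 5304 lower as deposited, were 8525 and 450 when rescaled, 2159 and 2210 under median-ratio scaling, 1826 and 2507 under quantile normalization and 334 and 1402 in the fit over all 12 libraries; without a filter on low TPM, 2007 were higher, and 321 when a TPM of 5 was required. Between vehicle tissues 31 members were called under median-ratio scaling and 29 under quantile normalization, with 16 and 14 sterol genes higher, against 8 when rescaled and 5 as deposited. Over all genes 1756 were higher and 6127 lower as deposited, with 3298 and 3715 under median-ratio scaling and 3320 and 3347 under quantile normalization. For the difference of effects a pseudocount of 0.1 called 1 member, Dgat2, in place of 0, and 20 genes in all became 176, 66 without a filter, 181 under median-ratio scaling, 150 under quantile normalization, 765 when rescaled and 11 when a TPM of 5 was required. In skin 1 fit over all 12 libraries called 1 gene, no member. The cause of these changes was not tested.

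Leaving out 1 library at a time gave 27 to 34 called members in liver, 0 in skin, 0 to 5 for the difference of effects and 14 to 21 between vehicle tissues, with 5 to 9 sterol and 9 to 13 fatty acid genes higher there and 0 to 1 fatty acid genes higher in CCl4 livers (Elovl6, without CCl4 replicate 1). Insig1 lost its call without liver CCl4 replicate 1 or vehicle replicate 1, Stard4 and Me1 without CCl4 replicate 1, and Acly without CCl4 replicate 1 or any vehicle replicate, while Acaca, Scd1, Gpam and Mlxipl were called lower without CCl4 replicate 3. Over all genes, 444 to 995 were higher in CCl4 livers, and 780 to 1966 were higher and 2989 to 5442 lower between vehicle tissues; for the difference of effects 1 to 181 were higher and 0 to 243 lower. The change of Fasn in liver ran over −0.24 to 0.96. In skin Scd1 ran over −2.41 to 1.03, Elovl5 −1.95 to 0.50, Sqle −0.21 to 1.21, Fdft1 −0.11 to 0.77 and Msmo1 −0.12 to 0.86. Liver log2 ratios ran over −0.19 to 0.30 for Mlxipl to Srebf1 and −0.034 to 0.015 for Fads2 to Fads1. Skin log2 ratios ran over −0.82 to 0.78 for Srebf1 to Srebf2, −0.089 to 0.62 for Mlxipl to Srebf1, −0.13 to 1.03 for Elovl6 to Elovl5 and −0.97 to 0.51 for Fasn to Hmgcs1.

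Replicate numbers come from the sample titles, and 4 of the 12 libraries have another number in their library name. The labels tie replicates of the same number by nothing but that number. Their deviations correlated at −0.04, 0.08 and 0.07 in liver and 0.59, 0.09 and 0.35 in skin (−0.18 for skin CCl4 replicate 3 and vehicle replicate 2, both numbered 4 in the library names). Other pairs in skin ran over −0.51 to 0.16, so the skin replicates numbered 1 and 3 in the titles were alike beyond their number. Not every library correlated best with its own number, and the main tests took no account of this likeness. With the replicate number as a block, liver calls were 1146 higher and 5347 lower with 20 sterol and 12 fatty acid genes lower (Scd1 and Gpam added), skin calls stayed at 0, and the difference of effects had 345 genes and 4 members called, Dgat2 among them. The blocked liver fit had few residual degrees of freedom and an unlimited prior, so its p-values rest on the spread over all genes. Between vehicle tissues the block gave 1647 higher and 5885 lower. TPM gives no depth, reads shared with paralogs or pseudogenes of members were not assessed, and 3 libraries per group limit every test.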
